A study of Mus musculus with 2 samples.

Results

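The genes described here are the metalloproteinases of the Mmp, Adam and Adamts families and the Timp genes that encode their tissue inhibitors, as measured in whole mouse kidney. They were taken by symbol, as every protein-coding gene of the count table whose symbol starts with Mmp, Timp or Adam followed by a digit, or with Adamts. This gave 84 of the 45777 genes in the table, of which 23 are Mmp, 4 Timp, 33 Adam and 24 Adamts genes, the last including 5 Adamtsl genes. The study sequenced stranded mRNA libraries from whole kidneys of control mice and of mice with a conditional knockout (CKO) specific to the proximal tubule, which the series title gives as a knockout of Inmt. There was 1 library per group, so no difference below has a replicate check or a p-value. The mice of both groups ate standard chow and had no treatment. Strain, age, sex, Cre driver and the number of animals in each library were not given in the sources used here.

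Metalloproteinases cut proteins with a zinc ion held in the active site. Mmp enzymes are secreted or membrane-anchored and cleave collagens, laminins, fibronectin and many other extracellular proteins, Adam enzymes sit in the plasma membrane and release the outer part of growth factors, cytokines and receptors, and Adamts enzymes are secreted and cut proteoglycans, procollagens and blood or cartilage proteins. Most are made with a prodomain that has to be removed, and Timp proteins block them by binding the active site. In the kidney these families are known for turnover of basement membrane and interstitial matrix and for shedding of epidermal growth factor receptor ligands and of injury markers.

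Counted reads came to 33618076 for the control and 38136616 for the CKO mice, and the 84 genes took 113626 and 123515 of them. Levels are CPM, reads relative to library size after scaling the libraries by the trimmed mean of M-values (TMM), and intervals on them and on ratios cover counting error only, not the variation between animals. Inmt, the targeted gene, had 17678 control against 5283 CKO reads and was 4.73-fold lower by CPM. Kidney markers were present in both libraries. The summed level was 17054 against 9994 CPM for 8 proximal tubule genes. All of these but Slc5a12, with a ratio of 1.19, were lower in the CKO library. For 8 genes of the loop, distal tubule and collecting duct the sum was 2493 against 3511 CPM. Umod held the largest part of that sum, at 1386 against 2170 CPM, and Calb1 alone was lower, at 124 against 77.9 CPM. In bulk tissue, fewer cells of a type and less RNA per cell cannot be told apart. The share of mitochondrial genes was 14.4% in the control against 10.8%.

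Of the 84 genes, 42 reached 1 CPM in at least 1 library and are called expressed. Among them 18 were at least 2-fold higher in the CKO library and none (0) was at least 2-fold lower, on the scale of log2(CPM + 0.5), which understates the ratios of genes with few reads. Of all 15129 expressed genes, 10.3% were at least 2-fold higher and 1.66% at least 2-fold lower. The median log2 ratio of the 42 was 0.74, against 0.01 for all expressed genes. Scaling by total counts raised both medians, to 1.03 and 0.32. A gene near the minimum can enter the set because it is high in the CKO library alone. This held for 6 of the 42, and none (0) entered through the control alone. Among the 36 with 1 CPM or more in both libraries, 14 were at least 2-fold higher, against 6.86% of the 13863 genes in the table that met the same condition.

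The remaining 42 genes were below the minimum, 23 with no read in either library and 19 with a few. By CPM, 17 of these 19 were higher in the CKO library, all except Adam4 and Adam1b, where 66.1% of the 8352 genes with reads below the minimum were. The ratio interval stayed above 1 for 9 of the 19, against 17.3% of those genes. Across all 84 genes, 12 had reads only in the CKO library and none (0) only in the control. Over all genes, 3149 had reads only in the CKO library and 782 only in the control.

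**Figure D1:**
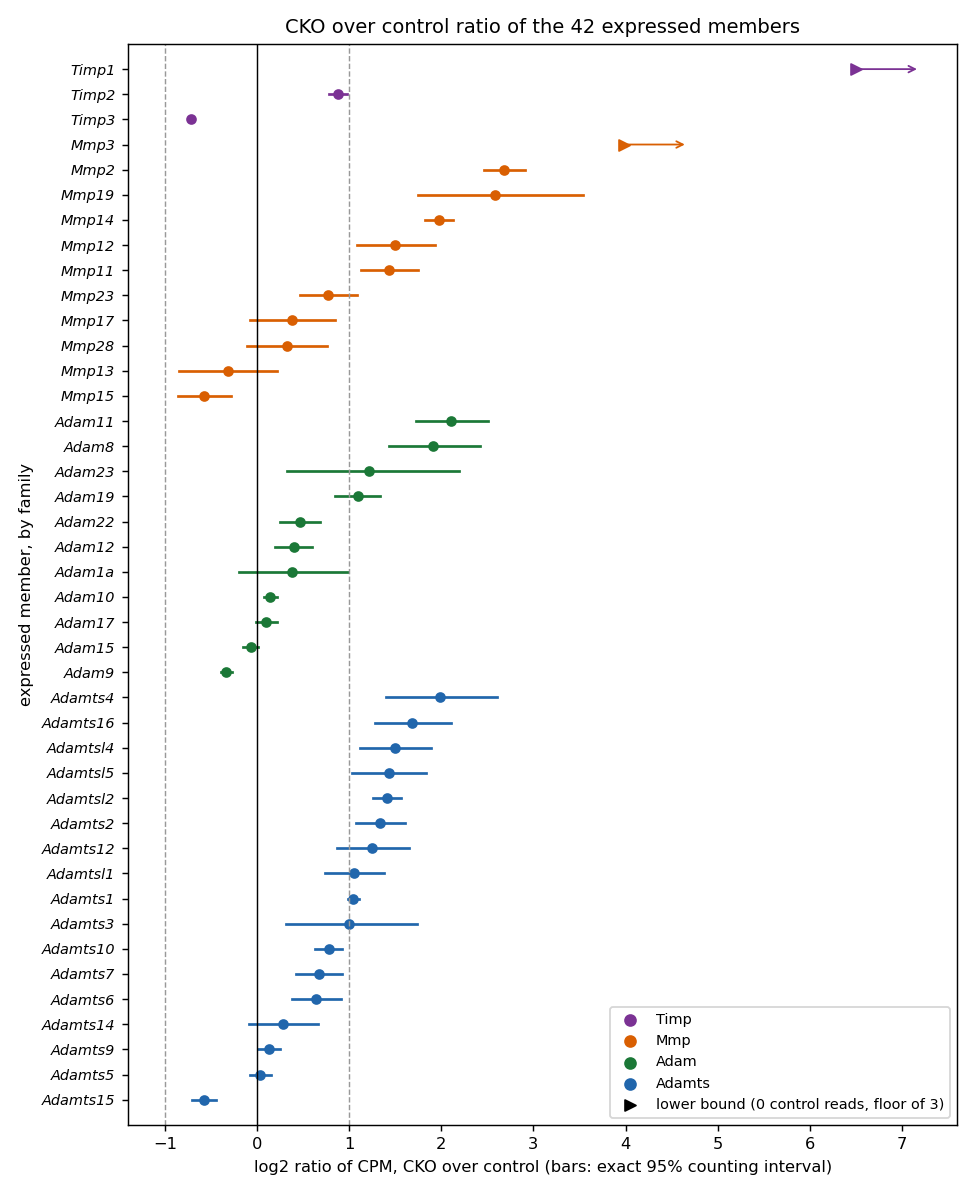
Log2 ratio of CPM, CKO over control, for each of the 42 expressed genes on a common axis, coloured by family, with exact 95% counting intervals as bars and dashed lines at 2-fold. Timp1 and Mmp3, with 0 control reads, are drawn as lower bounds against a floor of 3 reads. Ratios are drawn without the added 0.5 CPM. Adam23, Adamtsl1 and Adamts3 therefore lie right of the upper dashed line, though they are not among the 18 called at least 2-fold higher. No gene lies left of the lower dashed line, and Mmp and Adamts genes fill most of the right side.

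Timp3 dominated the whole set in both libraries. It encodes the inhibitor that binds to the extracellular matrix and also blocks Adam10, Adam17 and aggrecan-cleaving Adamts enzymes. Timp3 had 91800 control and 78913 CKO reads, or 3049 CPM (exact Poisson 95% interval 3029 to 3069) against 1853 (1840 to 1866). Per length, on the authors' FPKM scale (fragments per kilobase of gene model, relative to library size), the level was 514 against 389, which was 79.7% and 61.1% of the summed FPKM of all 84 genes. Timp3 was 1.65-fold lower in the CKO library (1.63 to 1.66), the lowest log2 ratio of the 42 expressed genes at -0.72. Its ratio stayed below 1 under the 6 other scalings and units, from -0.74 with DESeq2 size factors to -0.30 with TPM. Timp3 lies inside Syn3 (chromosome 10, 86300412 to 86349505 for Timp3, GRCm38), a synapsin gene with 3157 against 1667 reads and a log2 ratio of -1.41. The direction of reads used in counting was not given in the sources used here, so reads of overlapping genes cannot be told apart.

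Timp1 showed the opposite pattern. This gene encodes a secreted inhibitor that is strongly inducible by cytokines and growth factors. It had 0 control reads against 384, a level of 9.02 CPM (8.14 to 9.97), and was at least 90.5-fold higher against a floor of 3 control reads, which is 0.0996 CPM. The exact interval on the ratio, which allows for a higher control count, began at 73.3. Among the 13302 genes with 100 or more CKO reads, 20 were at 0 in the control and 2 had 1 to 3 reads there, so the bound holds only if that 0 is a true count. Timp1 lies on chromosome X at 20870166 to 20874737. The FPKM of Timp1 was 0 against 9.94, which moved it from no signal to the 10th highest of the 84 genes.

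Timp2, the inhibitor that also bridges the proenzyme of Mmp2 to Mmp14 at the cell surface, had 1129 against 2932 reads. It was 1.84-fold higher (1.71 to 1.97), just under the 2-fold limit, and passed it with both total-count scalings, FPKM and TPM. Timp4, the fourth inhibitor, had no read in either library. On the FPKM scale the Timp sum went from 522 to 418, and without Timp3 it went from 8.17 to 28.6. The summed Mmp level equalled 2.11% of the summed Timp level in control and 9.97% in CKO kidney.

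**Figure D2:**
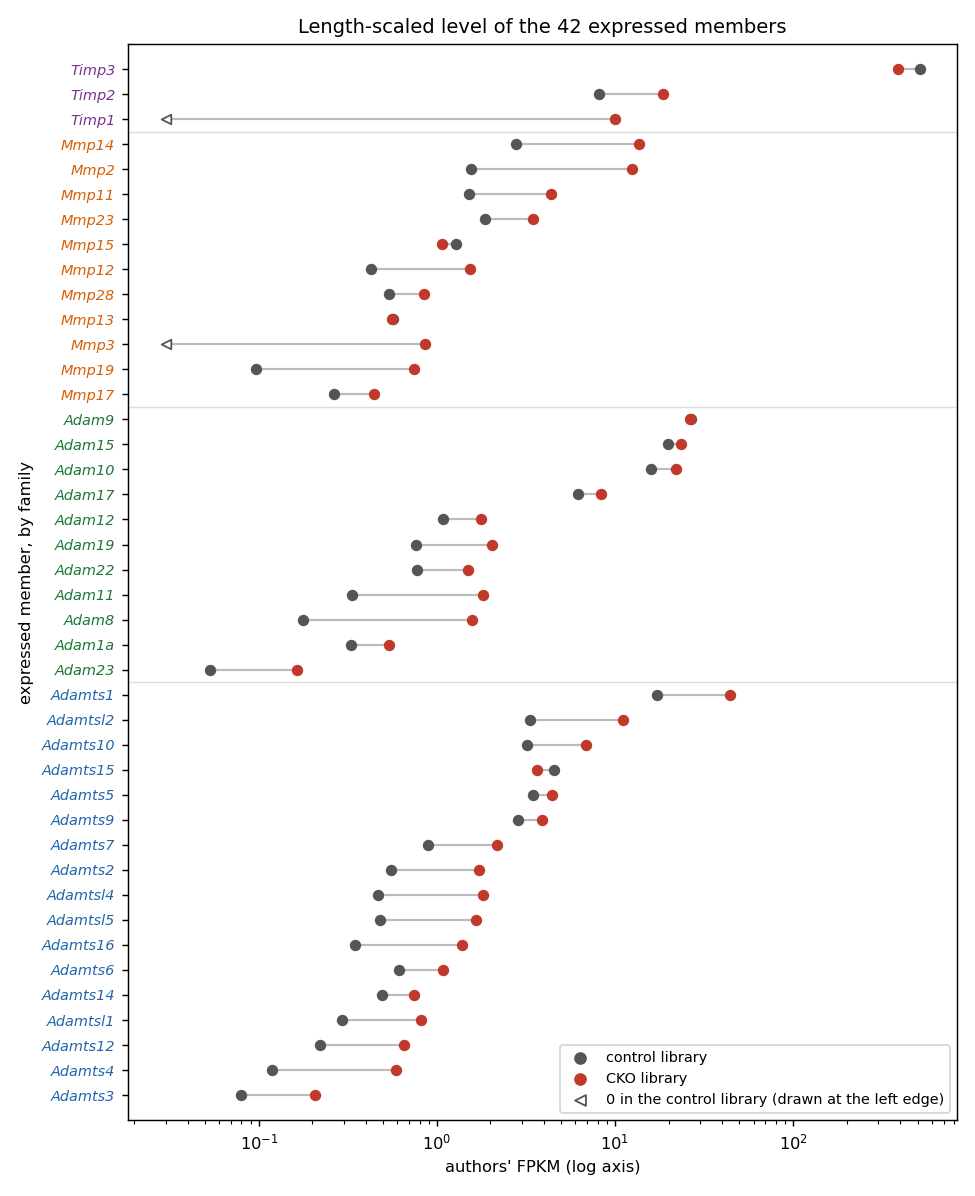
Authors' FPKM (log axis) of the 42 expressed genes in the control library (grey) and the CKO library (red), grouped by family and ordered by mean level. Timp3 stands far right of every other gene in both libraries at 514 and 389, and open triangles mark Timp1 and Mmp3, which were at 0 in the control.

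Mmp genes had the highest median of the 4 families over expressed genes, a rank that depended on the minimum used. Of 23 Mmp genes 11 were expressed, 6 of these were at least 2-fold higher and the median log2 ratio was 1.30. Mmp3 and Mmp19 reached the minimum through the CKO library alone. Of the 9 with 1 CPM or more in both libraries, 4 were at least 2-fold higher and the median gene was Mmp23 at 0.70. For the 15 such Adamts genes the median gene was Adamtsl1 at 0.96. Mmp2 and Mmp14 carried most of the summed Mmp FPKM in the CKO library, though not in the control. Mmp2 encodes gelatinase A, a secreted enzyme of fibroblasts and other mesenchymal cells that cuts denatured collagen and collagen IV. It had 183 control and 1664 CKO reads, 6.08 CPM (5.23 to 7.02) against 39.1 (37.2 to 41.0), and was 6.43-fold higher (5.52 to 7.53), the highest ratio among members with 100 or more control reads. Mmp14 encodes the membrane-type collagenase that activates the Mmp2 proenzyme. It went from 404 to 2243 reads, 13.4 CPM (12.1 to 14.8) against 52.7 (50.5 to 54.9), a ratio of 3.93 (3.53 to 4.38). All 3 genes of this activation complex, Mmp14, Timp2 and Mmp2, were higher in the CKO library, with ratio intervals above 1. The same held for 5564 of all 15129 expressed genes, as these intervals cover counting error only. Mmp2 (chromosome 8, 92827290 to 92853421) and Mmp14 (chromosome 14, 54431598 to 54442456) together made up 39.4% of the summed Mmp FPKM in control and 62.7% in CKO kidney.

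The other gelatinase gene stayed low. Mmp9, gelatinase B of neutrophils and macrophages, had 9 against 36 reads, a ratio of 2.83 (1.34 to 6.68) at 0.845 CPM in the CKO library. Among the other membrane-bound enzymes Mmp23, which lacks the usual hemopexin domain, was 1.71-fold higher (1.38 to 2.12), and it overlaps Mib2. Mmp15 went the other way, from 212 to 202 reads, and was 1.48-fold lower (1.22 to 1.81), a direction it kept under all 6 other scalings and units. Mmp17, anchored by a lipid, had 63 against 116 reads, a ratio of 1.30 whose interval included 1. Mmp16 and Mmp24 had at most 15 reads in either library, while Mmp25, a leukocyte enzyme, had 0 against 29.

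Mmp11, stromelysin 3 of stromal cells, had 113 against 432 reads, 3.75 against 10.1 CPM, and a ratio interval of 2.19 to 3.36. Mmp19, which acts on basement membrane proteins, had 13 against 110 reads and was 5.98-fold higher (3.36 to 11.6). It overlaps Tmem198b, which had 222 against 408 reads. Mmp28, expressed in epithelia, had 73 against 129 reads and an interval that included 1 (0.931 to 1.69). Mmp21, known from left-right patterning of the embryo, had no read.

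Much of this family forms a gene cluster, with 10 genes within 427 kb on chromosome 9 (7272514 to 7699585): Mmp13, Mmp12, Mmp1b, Mmp3, Mmp1a, Mmp10, Mmp8, Mmp27, Mmp20 and Mmp7 in that order. Of these, 6 had reads in the CKO library and 2 in the control. Mmp12, the macrophage elastase gene, had 60 against 240 reads and was 2.83-fold higher (2.12 to 3.82). Mmp3, stromelysin 1, had 0 against 67 reads, at least 15.8-fold higher against the floor, and its exact ratio interval began at 12.5. Mmp7, matrilysin, an epithelial enzyme known from injured kidney tubules, had 0 against 36 reads, and Mmp10, stromelysin 2, 0 against 26. Mmp13, collagenase 3, was the exception, with 58 against 66 reads and a ratio of 0.805 (0.557 to 1.17), so no difference was detectable at this depth, and its direction turned with total counts and TPM. Mmp20, the tooth enamel protease gene, had 0 against 8 reads, and Mmp1a, Mmp1b, Mmp8 and Mmp27 had none. Mmp1a and Mmp1b are near copies, so reads could be split or dropped between them. Of 1401 genes with 30 to 59 CKO reads, as Mmp7 had, 101 were at 0 in the control and only 34 at 1 to 3, so a 0 there was more frequent than the low counts next to it.

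Promoters of these neighbours are shown because they share a feature that the choice of the 84 genes did not use. Showing the whole cluster was not planned beforehand. The window from 250 bases before to 50 after the start was taken from RefSeq (GRCm38.p6), which had it for 53 of the 84 genes. The AP-1 site, the binding motif of Fos and Jun proteins and a textbook element of Mmp promoters, was searched as TGANTCA, which reads the same on both strands. It was in a window of 8 of the 10 clustered genes, 35 to 95 bases before the start, but in only 5 of the 43 other members with a window. Of all 27025 genes in the promoter table, 8.97% held it. Of the 11529 expressed genes with a window 6.54% did, and of the 1173 at least 2-fold higher, 10.5%. Among members with a window, 3 of the 13 at least 2-fold higher held it. So did 1 of the 15 other expressed members and 9 of the 25 below the minimum or without reads. All 6 clustered genes with CKO reads held the site, as did 2 of the 4 with no read, Mmp1a and Mmp1b. The cluster's genes are related by descent, so their shared letters are not independent. A match is a description of letters and not evidence of binding. Each line below gives the gene's strand 5′ to 3′ with the site in capitals and 12 bases on each side.
Mmp13 (chr9:7272467-7272497): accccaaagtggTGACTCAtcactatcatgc
Mmp12 (chr9:7347318-7347348): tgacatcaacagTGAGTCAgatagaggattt
Mmp1b (chr9:7388101-7388131, minus strand): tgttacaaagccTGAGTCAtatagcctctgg
Mmp3 (chr9:7445764-7445794): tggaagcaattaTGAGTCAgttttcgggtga
Mmp1a (chr9:7464056-7464086): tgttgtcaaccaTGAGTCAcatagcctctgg
Mmp10 (chr9:7502267-7502297): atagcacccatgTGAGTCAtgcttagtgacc
Mmp20 (chr9:7628124-7628154): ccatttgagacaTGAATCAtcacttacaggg
Mmp7 (chr9:7692015-7692045): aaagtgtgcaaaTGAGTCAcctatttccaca

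The form TGAGTCA was in 6 of the 8 windows. Mmp13 carries TGACTCA and Mmp20 TGAATCA. The gene with the site nearest its start, Mmp13 at 35 bases, was not higher in the CKO library, whereas Mmp12 at 44 bases and Mmp3 at 46 bases were. The whole Mmp3 window (chr9:7445572-7445871, plus strand), the member with the largest log2 ratio that held a site, reads as follows, with the AP-1 site in capitals.
Mmp3: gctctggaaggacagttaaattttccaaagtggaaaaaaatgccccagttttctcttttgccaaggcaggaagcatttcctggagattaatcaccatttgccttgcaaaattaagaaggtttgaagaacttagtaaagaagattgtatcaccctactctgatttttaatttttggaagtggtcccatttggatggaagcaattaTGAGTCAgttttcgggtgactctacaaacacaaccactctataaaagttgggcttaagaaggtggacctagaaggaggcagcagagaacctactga

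Outside the cluster the site was in windows of Adam19, which was 2.13-fold higher, and of Adam1b, Adam20, Adam25 and Adam29, which were below the minimum or without reads. A second motif, the STAT site TTCNNNGAA, was in windows of 3 of the 53 members (Adam21, Adam26b and Mmp23) and of 9.55% of all genes. It was in none (0) of the 13 windowed members that were at least 2-fold higher. No AP-1 and STAT match overlapped in these windows.

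Adam genes differed least between the libraries. Of 33, 11 were expressed, 3 of these were at least 2-fold higher and the median log2 ratio was 0.38. The 4 widely expressed sheddase genes Adam9, Adam10, Adam15 and Adam17 held 94.7% of the summed Adam FPKM in control and 88.8% in CKO kidney, and none was past 2-fold. Adam10, which cuts Notch receptors and cadherins, had 2804 against 4388 reads, 93.1 against 103 CPM, a ratio of 1.11 (1.06 to 1.16). Adam17, which releases tumour necrosis factor and several epidermal growth factor receptor ligands, had 1043 against 1580 reads and a ratio of 1.07 (0.990 to 1.16), and it overlaps Iah1. Their ratios were thus close to 1 by CPM. Adam9 was 1.26-fold lower (1.21 to 1.31), a direction that turned only with TPM, and Adam15 had a ratio of 0.953 (0.902 to 1.01), which turned above 1 with both total-count scalings, FPKM and TPM.

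The 3 higher Adam genes were all of low abundance. Adam11, an Adam without protease activity that is best known from neurons, went from 66 to 401 reads and was 4.30-fold higher (3.30 to 5.66). Adam8, a leukocyte protease, had 42 against 223 reads and was 3.75-fold higher (2.69 to 5.35). By FPKM the Adam8 ratio was 8.98, the largest gap between the count and FPKM ratios among the expressed members. Adam19, known from cardiac and mesenchymal development, was 2.13-fold higher (1.80 to 2.53) on 186 against 561 reads. It was the member just inside the 2-fold limit at a log2 ratio of 1.03, and Adamtsl1 was just outside at 0.96.

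Among the other Adam genes Adam12, a myofibroblast-associated protease, was 1.32-fold higher (1.15 to 1.52). Adam22 and Adam23, relatives of Adam11 that bind the secreted Lgi proteins, had 266 against 521 and 14 against 46 reads, ratios of 1.39 (1.19 to 1.61) and 2.32 (1.26 to 4.58). With the added 0.5 CPM, Adam23 had a log2 ratio of 0.71, under the limit used for the counts. Adam28 and Adam33 had 0 control reads and 5 and 16 CKO reads. Of 21 Adam genes known from testis or epididymis, 15 had no read in either library and Adam1a alone reached the minimum, with 39 against 72 reads. Adam5 had 3 against 30 reads, a ratio of 7.07 (2.199 to 36.21). Of 10 marker genes of testis and epididymis, 7 had no read in either library, and their summed level was 0.432 against 1.90 CPM.

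**Figure D3:**
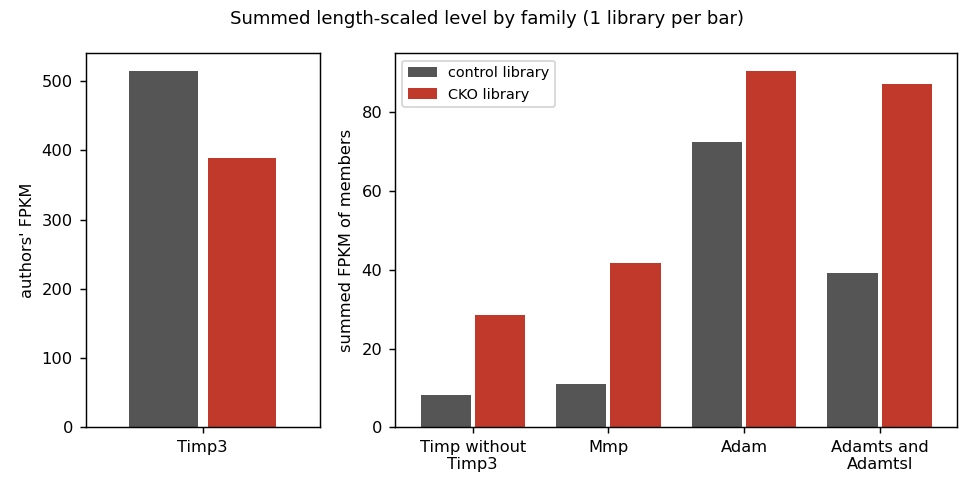
Authors' FPKM of Timp3 (left) and summed FPKM of the other Timp, the Mmp, the Adam and the Adamts genes (right), with 1 bar per library and both axes from 0. The Mmp bar goes from 11.0 to 41.6 and the Adamts bar from 39.3 to 87.2, while Timp3 goes from 514 to 389.

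Adamts genes were higher as a rule. Of 24, 17 were expressed, 8 of these were at least 2-fold higher and the median log2 ratio was 0.96. Of the 15 with 1 CPM or more in both libraries, 7 were at least 2-fold higher. Adamts1, a proteoglycanase of versican and aggrecan, was the most abundant protease gene of the whole set in the CKO library per length, at 44.2 FPKM, where in the control Adam9 was, at 26.8. It had 3204 control and 9354 CKO reads, 106 CPM (103 to 110) against 220 (215 to 224), a ratio of 2.06 (1.98 to 2.15), and lies on chromosome 16 at 85793827 to 85803113. Adamts5, its neighbour within the same 107 kb and an aggrecanase too that overlaps Gm46558, had 35.7 CPM (33.6 to 37.9) against 36.6 (34.8 to 38.5), intervals that overlapped. Adamts4, the other main aggrecanase, had 29 against 162 reads and was 3.95-fold higher (2.65 to 6.09). It overlaps another expressed gene, whose reads cannot be told apart from its own. Adamts15 was lower, at 32.9 against 22.2 CPM, a 1.48-fold difference (1.36 to 1.62) that kept its direction under all 6 other scalings and units. Adamts8, next to Adamts15 on chromosome 9, had 0 against 18 reads, and Adamts9, which overlaps A730049H05Rik and 9530026P05Rik, had a ratio of 1.10 (1.01 to 1.19). Proteoglycanase genes thus differed among themselves, from -0.56 to 1.56 on the log2 scale.

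The procollagen N-proteinase genes, whose products trim fibrillar collagens before assembly, all had ratios above 1. Adamts2 went from 153 to 546 reads and was 2.52-fold higher (2.11 to 3.04). Adamts3 had 24 against 68 reads, a ratio interval of 1.24 to 3.34 and, with the added 0.5 CPM, a log2 ratio of 0.69 under the limit, and Adamts14 had an interval that included 1 (0.945 to 1.58). Of the genes that cut cartilage oligomeric matrix protein, Adamts12 was 2.37-fold higher (1.82 to 3.13) and Adamts7 1.59-fold (1.34 to 1.90), or 2.44-fold by FPKM. Adamts13, the von Willebrand factor protease made by hepatic stellate cells, had no read in either library. Adamts16, linked to blood pressure, was 3.20-fold higher (2.43 to 4.29) on 62 against 281 reads. Adamts10, a fibrillin-associated protein, had 523 against 1268 reads and was 1.71-fold higher (1.55 to 1.90), and Adamts6 1.56-fold (1.30 to 1.88).

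Adamtsl genes encode secreted proteins that resemble Adamts enzymes but lack the protease domain, and several bind fibrillin microfibrils. Of 5, 4 were expressed and 3 were at least 2-fold higher, with log2 ratios of the 4 from 0.96 to 1.38. Adamtsl2 was the most abundant, at 15.3 CPM (14.0 to 16.8) against 40.8 (38.9 to 42.8), a ratio of 2.66 (2.40 to 2.96), and lies on chromosome 2 at 27079336 to 27108981. Adamtsl4 was 2.82-fold higher (2.17 to 3.70), Adamtsl5 2.69-fold (2.05 to 3.58) and Adamtsl1 2.08-fold (1.67 to 2.60), the last under the limit on the scale used for the counts. Adamtsl3 had 7 against 13 reads. All 4 expressed genes thus had ratio intervals above 1, as did 30 of the 42 expressed members and 5564 of all 15129 expressed genes.

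Low-abundance genes were often higher in the CKO library throughout the table, so members were also set beside genes of like level. With a mean of under 5 CPM, 10 of 17 members were at least 2-fold higher, where 24.1% of all expressed genes were. All 6 members that entered through the CKO library alone were in this range, 4 of them among the 10. With 1 CPM required in both libraries, a condition chosen after seeing the data, it was 6 of 11 members against 12.2%. From 5 to under 20 CPM it was 4 of 11 members against 11.3%. At 20 CPM or more it was 4 of 14 members (Mmp2, Mmp14, Adamts1 and Adamtsl2) against 3.03%, and the median of these 14 was 0.14 against -0.13 for all genes of that level. The 2 higher ranges held no such member.

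**Figure D4:**
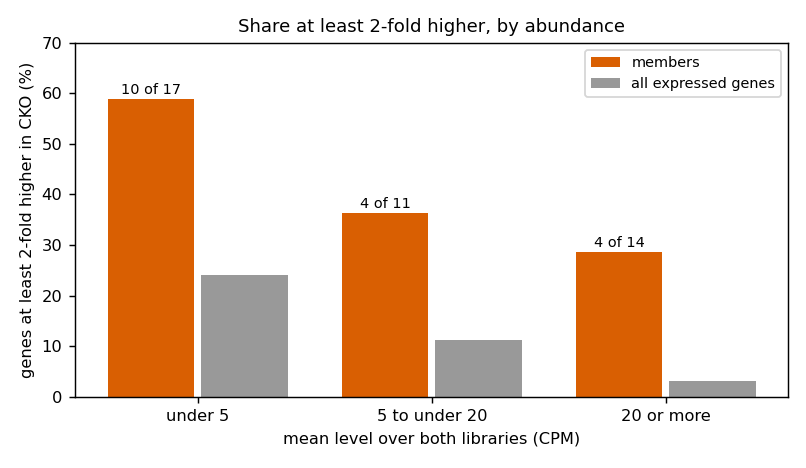
Percent of genes at least 2-fold higher in the CKO library among members (orange, with their counts) and among all expressed genes (grey), by mean CPM over both libraries. The orange bar is above the grey bar in all 3 ranges, with 10 of 17, 4 of 11 and 4 of 14 members. The 10 of 17 include 4 that reached the minimum through the CKO library alone.

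Genes that act with these proteases were read from 8 lists. Beside the counts below, 10.3% of all expressed genes were at least 2-fold higher and 1.66% at least 2-fold lower. The plasminogen system, which generates plasmin, an activator of several Mmp proenzymes, had 4 of 5 expressed genes past the limit upwards and a median log2 ratio of 1.53. Serpine2, a serine protease inhibitor gene, was 4.24-fold higher (3.66 to 4.92). Plau, urokinase, was the most abundant of the list at 51.6 against 179 FPKM and was 2.78-fold higher (2.69 to 2.87), and its receptor gene Plaur was 3.17-fold higher. The proprotein convertases, which remove the prodomains of membrane-type Mmp, Adam and Adamts enzymes, differed little. None (0) of their 4 genes was past 2-fold, and the median was -0.20. Furin, the most abundant, was 1.25-fold lower (1.21 to 1.29). Pcsk5 was 1.32-fold lower (1.23 to 1.42), while Pcsk6 was 1.52-fold higher (1.33 to 1.74).

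Other inhibitors and inducers had 1 of 8 expressed genes at least 2-fold lower and none (0) higher. The lower one was Pzp, an alpha-2-macroglobulin relative that traps proteases, at 5507 against 3203 reads, 2.43-fold lower (2.33 to 2.54). Reck, a membrane-anchored Mmp inhibitor, was 1.25-fold higher (1.06 to 1.47). Bsg, a membrane protein known to induce Mmp genes and the list's most abundant by FPKM, was 1.25-fold lower (1.22 to 1.28). Pcolce, an enhancer of procollagen C-proteinase, was 1.95-fold higher. Of the astacin proteases, Bmp1, the procollagen C-proteinase, was 2.32-fold higher (2.05 to 2.63), while the brush border meprin gene Mep1a, the most abundant, was 1.44-fold lower at 494 against 425 FPKM. On the FPKM scale the median log2 ratio of all expressed genes was 0.26.

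Partners of Adam10 and Adam17 had 1 of 8 expressed genes at least 2-fold higher, near the share of 10.3% over all expressed genes. This was Rhbdf2, which carries Adam17 to the cell surface, at 334 against 997 reads, 2.11-fold higher (1.86 to 2.40). Tspan14, a tetraspanin of Adam10 and the most abundant, had a ratio of 0.900 and Tspan5 of 0.748. The list of membrane proteins that Adam10 or Adam17 can shed had 9 of 24 expressed genes at least 2-fold higher and none (0) at least 2-fold lower, with a median of 0.76. Cd44, the hyaluronan receptor gene, had 48 against 1223 reads. Vcam1, an adhesion molecule for leukocytes, was 12.2-fold higher, Havcr1, the kidney injury molecule 1 gene, 11.6-fold and Csf1, the macrophage growth factor gene, 4.27-fold. Kl, the klotho gene and the most abundant by FPKM, was 1.74-fold lower (1.71 to 1.76). The counts measure these transcripts and not shedding.

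Substrate genes of the matrix were higher in the CKO library as well. All 16 genes of the Mmp substrate list had ratios above 1, and 8 of them passed the limit. Their median log2 ratio was 1.12. Tnc, the tenascin C gene, went from 69 to 961 reads, 9.85-fold higher (7.71 to 12.8), Col3a1 was 5.08-fold and Col1a1 4.73-fold higher, and Spp1, osteopontin, which led the list by FPKM, 12.3-fold. The basement membrane chains Col4a1 and Col4a2 were 1.73-fold and 1.64-fold higher. Of the 8 expressed Adamts substrate genes 4 were past the limit upwards and 1 downwards, and the median log2 ratio was 1.17. Of the 6 with 1 CPM or more in both libraries, 2 were past it upwards. Fbn1, the fibrillin 1 gene, was 3.07-fold higher, Vcan, versican, 3.92-fold on 24 against 133 reads, Fbn2 7.42-fold on 6 against 63 reads and Bgn, biglycan, the most abundant, 1.97-fold. Hapln1, a link protein gene, was the lower one, with 108 against 65 reads.

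**Figure D5:**
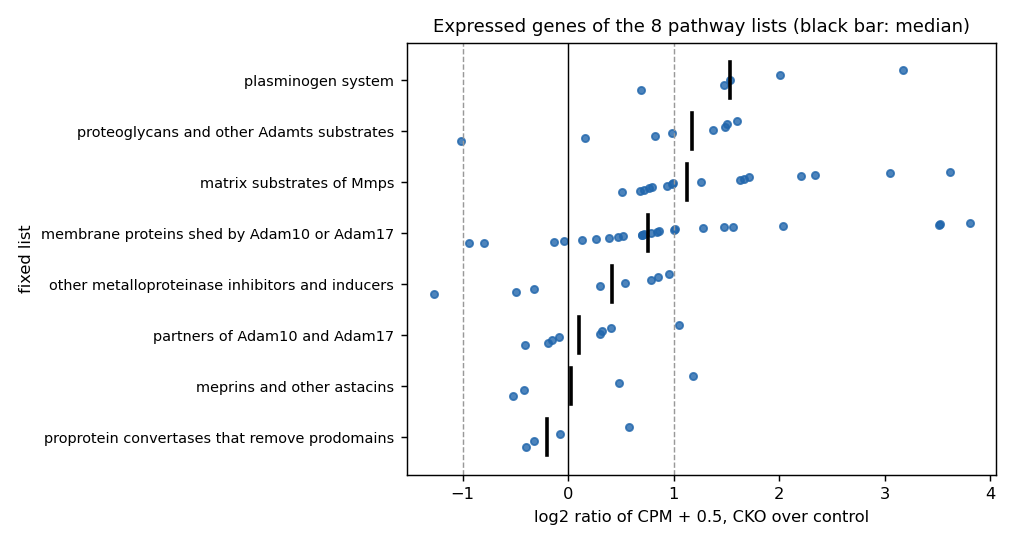
Log2 ratio of CPM + 0.5, CKO over control, for the expressed genes of 8 lists (points) with the list median as a black bar and dashed lines at 2-fold. Medians run from -0.20 for the proprotein convertases to 1.53 for the plasminogen system, and every point of the Mmp substrate list is right of 0.

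Markers of cell types that make these proteases also differed between the libraries. Counts are over markers with 1 CPM or more in both libraries, and sums are over the whole list. Of all genes that met this condition, 6.86% were at least 2-fold higher. Of 8 such fibroblast and myofibroblast markers, 6 were at least 2-fold higher, and the summed level of the list was 278 against 806 CPM. The receptor genes Pdgfra and Pdgfrb were not past 2-fold, at ratios of 1.79 and 1.34. Col1a1, Col1a2, Col3a1 and Dcn are also in the substrate lists and Acta2 is also a smooth muscle marker, so these counts share genes. Of 11 macrophage and monocyte markers, 10 were at least 2-fold higher, with sums of 79.4 and 382 CPM and Ms4a7 at 0 in the control. No neutrophil marker met that condition, the sums over 8 were 0.897 and 4.84 CPM, and Camp, Mpo, S100a8, Elane and Ly6g had no read in either library. No T or NK cell marker of 8 met it either, since 5 reached 1 CPM in the CKO library alone, and their sums were 1.93 and 10.4 CPM with Cd3d at 0 in the control. Of the B and plasma cell markers, Ighm alone met it and was at least 2-fold higher, and the sums over 6 were 4.82 and 12.8 CPM. Smooth muscle markers had 2 of 4 at least 2-fold higher, at 78.4 and 146 CPM. Endothelial and podocyte markers had none (0) of 8 and none (0) of 5 past 2-fold, at 549 against 536 and 396 against 398 CPM. Proximal tubule markers had 3 of 8 at least 2-fold lower, and those of the later tubule 1 of 8 at least 2-fold higher. The part of these cell types in the differences of the metalloproteinase genes was not tested.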

How the data were processed

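RNA was sequenced from 1 control and 1 CKO whole-kidney library. The deposited table holds raw read counts per NCBI gene ID, with the authors' FPKM and TPM beside them per the file headers. A second deposited table holds normalized signal values, which equal the counts over a fixed divisor for each library (30.1 and 42.6), for 19550 genes, 49 of them members. Among the tools listed in the submitters' processing notes, without roles, are Cufflinks 2.2.1, STAR 2.7.3a and HTSeq, and the build is mm10.

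Counts were scaled by TMM (edgeR 4.0.16, R 4.3.3) over genes with a read, giving the effective library sizes. Log2 ratios are CKO over control of CPM + 0.5, with a minimum of 1 CPM in either library and a limit of 2-fold. Fold values are plain CPM ratios with exact Clopper-Pearson 95% intervals, and levels carry exact Poisson intervals, in Python 3.11.15 with scipy 1.17.1. The steps were run on simulated Poisson counts with known changes. Those counts hold no variation between animals, so they check the arithmetic only and not the calls made here. Coordinates are RefSeq GRCm38, the assembly of mm10, matched by gene ID for all 84 members.

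Members, 8 pathway lists and 11 marker lists were chosen with earlier results of these data known. Named are every Timp, every expressed member past 2-fold, the 2 most abundant per role by FPKM, and 2 to 4 genes with the largest log2 ratios plus the most abundant per list. Other members are named to account for each family, and some were chosen after their values were seen. Protein motifs were not analysed here. A gene that the naming rule covers is not reported here. The 16 alternatives covered scaling (DESeq2 1.42.0 size factors among them), pseudocount, minimum, fold limit, call rule, unit, overlap and depth.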

Additional observations from a re-analysis of the deposited data

How the results depend on the processing

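Across the 16 alternatives, the number of members at least 2-fold higher was within 1.5 times of the 18 reported except with a pseudocount of 2 CPM, where it was 10, and with a minimum of 10 CPM in either library, where 19 members were left and 7 were higher. It was 23 of 41 with TPM, 15 of 30 with FPKM and 15 when the counting interval itself had to lie past 2-fold, without Adam19, Adamts1 and Adamts12. Under a mean of 5 CPM, requiring 1 CPM in both libraries, chosen after seeing the data, gave 6 of 11 in place of 10 of 17. Without the 7 expressed members that overlap another expressed gene it was 16 of 35. No member was at least 2-fold lower under any setting with the 2-fold limit, and with a 1.5-fold limit 1 was lower, Timp3. The median log2 ratio ranged from 0.45 with the 10 CPM minimum to 1.15 with TPM, where the medians of all genes were -0.08 and 0.40. With the 2-fold limit, the share of all genes higher ran from 5.45% with the 2 CPM pseudocount to 17.0% with TPM. Of 498 single-gene values, 424 stayed within a band centred on the gene's main value. On the log2 scale the band was as wide as the gene's counting interval, which has no upper limit for Timp1 and Mmp3. The other 74 lay outside it, and none (0) of the members past 2-fold changed direction. Of 18 higher members, 8 were under 2-fold with the 2 CPM pseudocount, and none (0) under another scaling, pseudocount or unit that kept it. Across 6 scalings and units, Adam15, Mmp13 and Adam9 changed direction. No paired analysis was possible because each group has 1 library. Intervals were widest for genes with few reads, and variation between animals was not measured.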
